A study of Homo sapiens with 20 samples.

Results

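Keratins KRT7, KRT8, KRT18, KRT19, KRT80, KRT81 and KRT86 were followed in tumors of OVCAR8, a human ovarian cancer cell line. They were selected by symbol as 7 keratins of simple and hair-type epithelium, and all 7 were present among the 24196 genes of the deposited expression table. KRT7 had the lowest unadjusted p of the 4 members tested with limma. It was 1.65-fold higher in gluconate-treated than in PBS-treated tumors at an unadjusted p of 0.0201 (limma), although the groups overlapped. It did not pass the correction over all genes, with an adjusted p of 0.740. KRT8 and KRT18 were far more abundant and lay slightly lower under gluconate, and their differences did not pass the test. KRT80 was at an intermediate level, and KRT81, KRT86 and KRT19 were at or near the limit of detection.

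The comparison asked which transcripts change in the tumor when the mice receive sodium gluconate, the sodium salt of gluconic acid. OVCAR8 tumors were grown orthotopically in NSG mice, an immunodeficient strain, and the libraries came from 4 tumors given PBS and 4 given gluconate. Per the study's methods, cells carrying a control guide RNA (sgNC) and luciferase were placed in the ovarian fat pad of mice 6 weeks old, and the efficacy experiment gave PBS or 1 mg/kg sodium gluconate intraperitoneally once a week for 35 days. The series also labels 12 libraries of CHP1 or TMEM87A knockout cells and their controls, which were not analysed here. For this experiment the study's text mentions gluconate-treated OVCAR8 cells, whereas GEO's sample titles name orthotopic tumors, as taken here. All tumors come from 1 cell line, in hosts that lack lymphocytes but keep stromal, vascular and myeloid cells. How mouse reads were handled is not given in the sources used here. The table heads its columns with C or T and a number, and the letters were assigned to PBS (C) and gluconate (T) from the study's plot of gluconate against PBS, on which the axis is the ratio of T to C.

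Levels are in FPKM, the fragments of a gene scaled by its length and by the fragments of the library. Recovered from the smallest steps of the values, the depth was 3953206 fragments in PBS replicate 4 and 39325749 to 46551535 in the other 7 libraries. PBS replicate 4 also had 15514 genes above 0 against 19991 to 20251 in the others, and its correlation with them across genes was 0.938 to 0.951, where the other 7 had at least 0.980 among themselves. Member differences are therefore given with and without this library. Of the ovarian carcinoma markers, PAX8 (32.4 to 50.7 FPKM), MSLN (103 to 171 FPKM) and EPCAM (10.3 to 22.3 FPKM) were present in every library, while MUC16 did not exceed 0.00168 FPKM and CDH6 0.0755 FPKM.

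Keratins are the intermediate filament proteins of epithelial cells. A filament is built from obligate pairs of a type I and a type II chain, so each cell type makes at least a chain of both kinds. KRT8 (type II) and KRT18 (type I) form the basic pair of simple, single-layered epithelium, KRT7 (type II) and KRT19 (type I) join them in ductal and glandular epithelium, and KRT7 is used in pathology as a marker of ovarian carcinoma. KRT80 is a type II keratin of many epithelia, and KRT81 and KRT86 are type II hair keratins of the hair shaft cortex.

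In GENCODE 29 on GRCh38, 6 members lay on chromosome 12 between 52168996 and 52952901, a span of 784 kb, and KRT19 lay on chromosome 17 at 41523617 to 41528308 on the minus strand. KRT7 (chr12:52232520-52252186, plus strand) contained the antisense gene KRT7-AS (chr12:52245048-52247448, minus strand). KRT8 (chr12:52897187-52949954, minus strand) and KRT18 (chr12:52948871-52952901, plus strand) overlapped over 1084 bases, although one encodes a type II and the other a type I chain. KRT81 (chr12:52285913-52291534, minus strand) lay wholly within the span annotated for KRT86 (chr12:52249300-52309163, plus strand), which also overlapped 2887 bases of KRT7. KRT80 lay at chr12:52168996-52192000 on the minus strand and overlapped no other member. Whether the counting used strand is not given in the sources used here, so fragments of overlapping genes on opposite strands cannot be told apart.

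How far the fragments of the members can be separated was read from the coding sequences of GENCODE 29. KRT7, KRT8, KRT18 and KRT19 shared no run of 50 coding bases with one another, and the longest run, between KRT7 and KRT8, was 41 bases. KRT8 and KRT80 shared a run of 65 bases. The hair keratins were different: KRT81 and KRT86 shared a run of 605 coding bases, and 33.4% of the 150-base windows of KRT81 occurred unchanged in KRT86. The split of fragments between KRT81 and KRT86 is therefore uncertain. KRT86 also shares its 2887-base overlap with KRT7 on the same strand, and KRT7 averaged 282 FPKM against 0.0982 FPKM for KRT86. How fragments in that overlap were assigned is not given in the sources used here, and their part in the KRT86 values was not tested.

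The members stood at very different levels, in an order that largely held from library to library. By mean FPKM over the 8 libraries, KRT8 ranked 75 of 24196 genes, KRT18 ranked 90 and KRT7 ranked 187, whereas KRT80 ranked 5395, KRT81 13975, KRT86 15432 and KRT19 19328. KRT8 exceeded KRT18 within each of the 8 libraries, although their ranges overlapped. KRT18 exceeded KRT7 in all 8 libraries without overlap, KRT7 exceeded KRT80, and KRT80 exceeded KRT81, again without overlap. KRT81 was above KRT86 in 7 of 8 libraries and the ranges of this pair overlapped, as did those of KRT86 and KRT19.

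**Figure D1:**
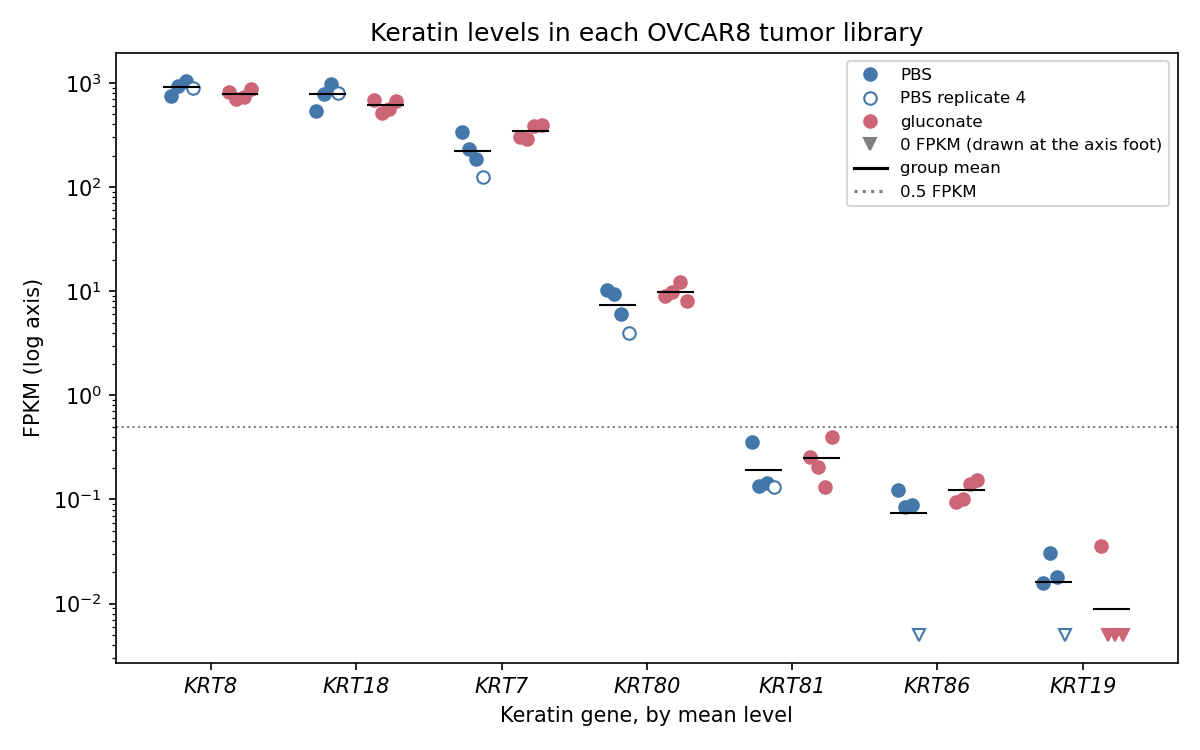
FPKM on a log axis for the 7 keratins, ordered by mean level, with 1 point per tumor library (PBS blue, gluconate red, PBS replicate 4 open), a black line at each group mean and triangles for libraries at 0. KRT8, KRT18 and KRT7 lie at 124 FPKM or more in every library, KRT80 between 3.97 and 12.3 FPKM, and KRT81, KRT86 and KRT19 below the dotted line at 0.5 FPKM.

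KRT7, the ductal and glandular type II keratin, measured 335, 234, 185 and 124 FPKM in PBS replicates 1 to 4 and 306, 293, 387 and 393 FPKM in gluconate replicates 1 to 4. The gluconate libraries were all high, 3 of the 4 PBS libraries lay below every gluconate library, and PBS replicate 1 lay among them, so the groups overlapped. The means were 220 ± 89.1 FPKM under PBS and 344 ± 52.6 FPKM under gluconate (SD, n = 4 each). On log2(FPKM + 0.1) the difference was 0.73 ± 0.26 (SE), a 1.65-fold higher level with a 95% interval of 1.10 to 2.48, at an unadjusted p of 0.0201 and an adjusted p of 0.740 (limma). An exact permutation test (two-sided, 70 splits) gave p = 0.0857, where the smallest possible is 0.0286. Without PBS replicate 4, the lowest KRT7 library, the difference was 0.48 ± 0.19 (SE), or 1.40-fold, with an unadjusted limma p of 0.0271, an adjusted p of 0.799 and an exact permutation p of 0.143. The unadjusted limma p was 0.0506 without gluconate replicate 3 and 0.0535 without gluconate replicate 4, and it was 0.00159 without PBS replicate 1. Counting error was small beside this spread, since even PBS replicate 4 held 1311 KRT7 fragments, with a 95% Poisson interval of 118 to 131 FPKM.

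KRT7 was thus 1 of 4 tested members called higher, at an unadjusted p under 0.05, where 3.13% of all 12486 genes tested were called higher. No member was called lower, where 1.49% of all genes were. KRT7 alone was again called higher without PBS replicate 4, where 2.85% of genes were called higher and 3.36% lower, and again no member was lower. No member reached a 2-fold difference with an unadjusted p under 0.05, as 0.296% of genes did, and 0 of the 4 had gluconate libraries that all lay above the PBS libraries, as 2.08% of genes tested had. The median log2 difference was 0.14 over the 4 tested members and 0.07 over all genes tested, and without PBS replicate 4 these medians were 0.0024 and -0.0029. No gene of the 12486 had a limma p under 0.05 after adjustment, while 577 had an unadjusted one.

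KRT8, the type II chain of the basic simple pair, measured 747, 935, 1051 and 889 FPKM in PBS replicates 1 to 4 and 827, 700, 738 and 878 FPKM in gluconate replicates 1 to 4. In this case 3 PBS libraries lay above every gluconate library, and PBS replicate 1 fell into the gluconate range. The means were 906 ± 126 FPKM under PBS and 786 ± 81.4 FPKM under gluconate (SD, n = 4 each). The log2 difference was -0.20 ± 0.11 (SE), at a limma p of 0.110 unadjusted and 0.740 adjusted and an exact permutation p of 0.143, and its 95% interval ran from -0.46 to 0.06. It was -0.21 without PBS replicate 4.

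KRT18, the type I partner of KRT8, followed it closely. It measured 540, 791, 987 and 801 FPKM in PBS replicates 1 to 4 and 682, 513, 564 and 678 FPKM in gluconate replicates 1 to 4. Again 3 PBS libraries lay above every gluconate library and PBS replicate 1 lay low in the gluconate range. The means were 780 ± 183 FPKM and 609 ± 84.3 FPKM (SD, n = 4 each), and the log2 difference was -0.33 ± 0.17 (SE) with a 95% interval of -0.72 to 0.06, at a limma p of 0.0843 unadjusted and 0.740 adjusted and an exact permutation p of 0.171. It was -0.31 without PBS replicate 4.

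KRT80 measured 10.3, 9.37, 6.07 and 3.97 FPKM in PBS replicates 1 to 4 and 9.00, 9.83, 12.3 and 8.10 FPKM in gluconate replicates 1 to 4. PBS replicates 3 and 4 lay below every gluconate library and the others overlapped. The means were 7.43 ± 2.94 FPKM and 9.82 ± 1.82 FPKM (SD, n = 4 each), with a log2 difference of 0.47 ± 0.28 (SE) and a 95% interval of -0.15 to 1.10, at a limma p of 0.121 unadjusted and 0.740 adjusted and an exact permutation p of 0.257. Without PBS replicate 4, in which KRT80 rested on 69 fragments, the log2 difference was 0.21.

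The calls on KRT8, KRT18 and KRT80 changed without PBS replicate 1. In that fit, KRT8 was lower by a log2 difference of -0.29 at an unadjusted limma p of 0.0201, KRT18 by -0.50 at 0.00425, and KRT80 was higher by 0.66 at 0.0389, beside KRT7 at 0.96. All 4 tested members then passed an unadjusted p under 0.05, where 7.43% of all genes were called higher and 2.31% lower. The lowest adjusted p of KRT18 under any alternative was 0.491. No label sets PBS replicate 1 apart, and its depth of 45605414 fragments was within the range of the other libraries.

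**Figure D2:**
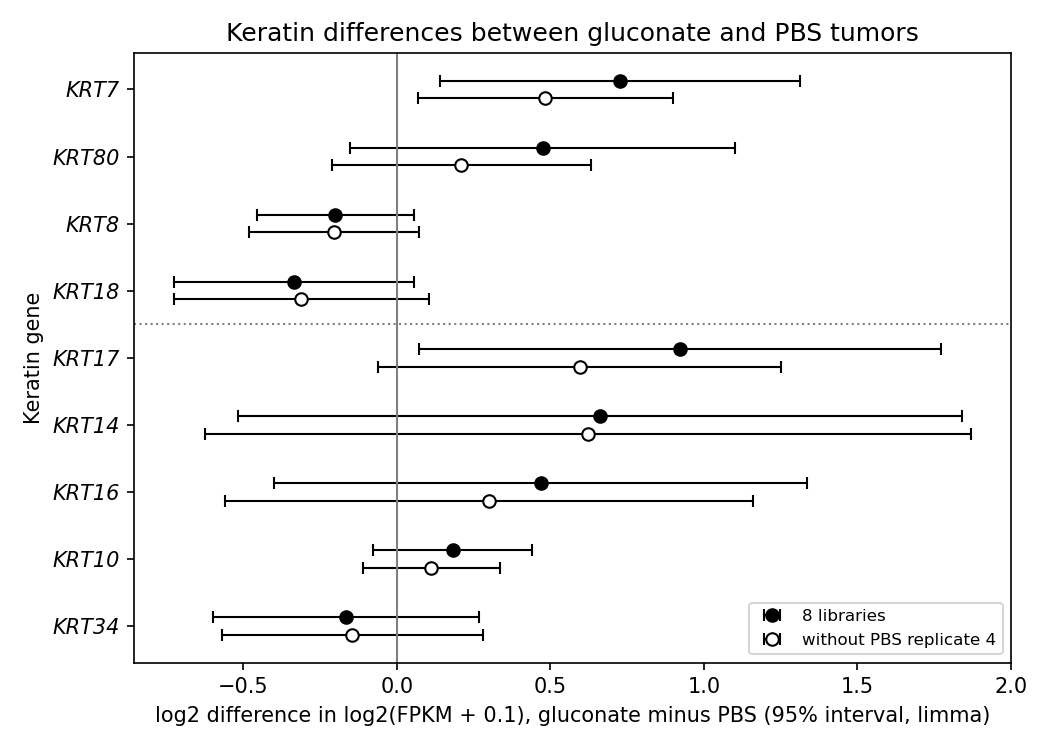
Difference in log2(FPKM + 0.1), gluconate minus PBS, with its 95% limma interval for the 4 tested members (above the dotted line) and the 5 other keratins with a mean of at least 0.5 FPKM, with 8 libraries (filled) and without PBS replicate 4 (open). The interval of KRT7 lies above 0 in both fits, and that of KRT17 only with all 8 libraries.

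The hair keratins and KRT19 were below the mean of 0.5 FPKM that the limma fit required and were compared with the exact permutation test alone. KRT81 measured 0.352, 0.134, 0.143 and 0.131 FPKM in PBS replicates 1 to 4 and 0.257, 0.206, 0.132 and 0.400 FPKM in gluconate replicates 1 to 4. The groups overlapped, although gluconate replicate 4 lay above every PBS library and PBS replicate 4 marginally below every gluconate library. The highest PBS value was in replicate 1. The PBS replicate 4 value was a single fragment, and the others rested on 10 to 33. The difference of mean log2(FPKM + 0.1) was 0.27, with an exact permutation p of 0.429. It was 0.19 without PBS replicate 4, 0.51 without PBS replicate 1 and 0.08 without gluconate replicate 4.

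KRT86 measured 0.124, 0.0853, 0.0880 and 0 FPKM in PBS replicates 1 to 4 and 0.0947, 0.0999, 0.140 and 0.154 FPKM in gluconate replicates 1 to 4. Gluconate replicates 3 and 4 were above every PBS library, and the rest overlapped. In PBS replicate 4, 0 fragments allow a level of up to 0.116 FPKM (3 fragments, counting error only), which is above 4 of the 7 values of the other libraries, so its level was not measurable at that depth. The difference of mean log2(FPKM + 0.1) was 0.40, with an exact permutation p of 0.143. It followed the pseudocount, at 0.06 with 1 and 1.12 with 0.01, and was 0.15 without PBS replicate 4 (exact permutation p = 0.314). Without PBS replicate 1 it was 0.54 with an exact permutation p of 0.0286, a separation of the groups that counts the unmeasurable level of PBS replicate 4 as 0 and is not read as a difference.

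KRT19, the smallest type I keratin and a usual partner in glandular epithelium, was essentially undetected. Its fragments numbered 1, 2, 1 and 0 in PBS replicates 1 to 4 and 2, 0, 0 and 0 in gluconate replicates 1 to 4, at most 0.0357 FPKM. The 3 gluconate libraries without a fragment allow up to 0.0504 to 0.0549 FPKM (3 fragments), while PBS replicate 4 allows up to 0.546 FPKM. Both groups were thus at or under the floor, and no fold is given. The exact permutation test gave p = 0.486.

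Across libraries, the 4 tested members fell into a pair that moved together and a pair that ran against it. The log2 levels of KRT8 and KRT18 had a Pearson correlation of 0.98 over the 8 libraries and 0.99 without PBS replicate 4 (Spearman 0.93 in both). KRT7 ran against both, at -0.57 with KRT8 and -0.69 with KRT18 over 8 libraries, and -0.70 and -0.76 over 7. KRT80 ran with KRT7 (0.88 over 8 libraries, 0.68 over 7) and against KRT8 (-0.61 and -0.83) and KRT18 (-0.69 and -0.82). The rank correlations of KRT7 with these members were weaker. Spearman values over 8 and 7 libraries were -0.55 and -0.43 for KRT7 with KRT8, -0.64 and -0.50 for KRT7 with KRT18, and 0.57 and 0.36 for KRT7 with KRT80. These are descriptions over libraries that share group and depth, and FPKM values of a library share its total. The loci of KRT8 and KRT18 overlap over 1084 bases, and the part of this in their correlation was not tested.

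The level of KRT7 was 0.449, 0.250, 0.176 and 0.140 of that of KRT8 in PBS replicates 1 to 4, and 0.370, 0.418, 0.524 and 0.447 of it in gluconate replicates 1 to 4. The ratio was higher in all gluconate libraries than in 3 of the PBS libraries, with PBS replicate 1 among the gluconate values. KRT18 stood at 0.723, 0.846, 0.939 and 0.901 of KRT8 in the PBS libraries and at 0.825, 0.733, 0.764 and 0.772 of it in the gluconate libraries. The summed level of all type II keratins was 1.13 to 1.47 times that of all type I keratins under PBS and 1.21 to 1.54 times under gluconate.

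**Figure D3:**
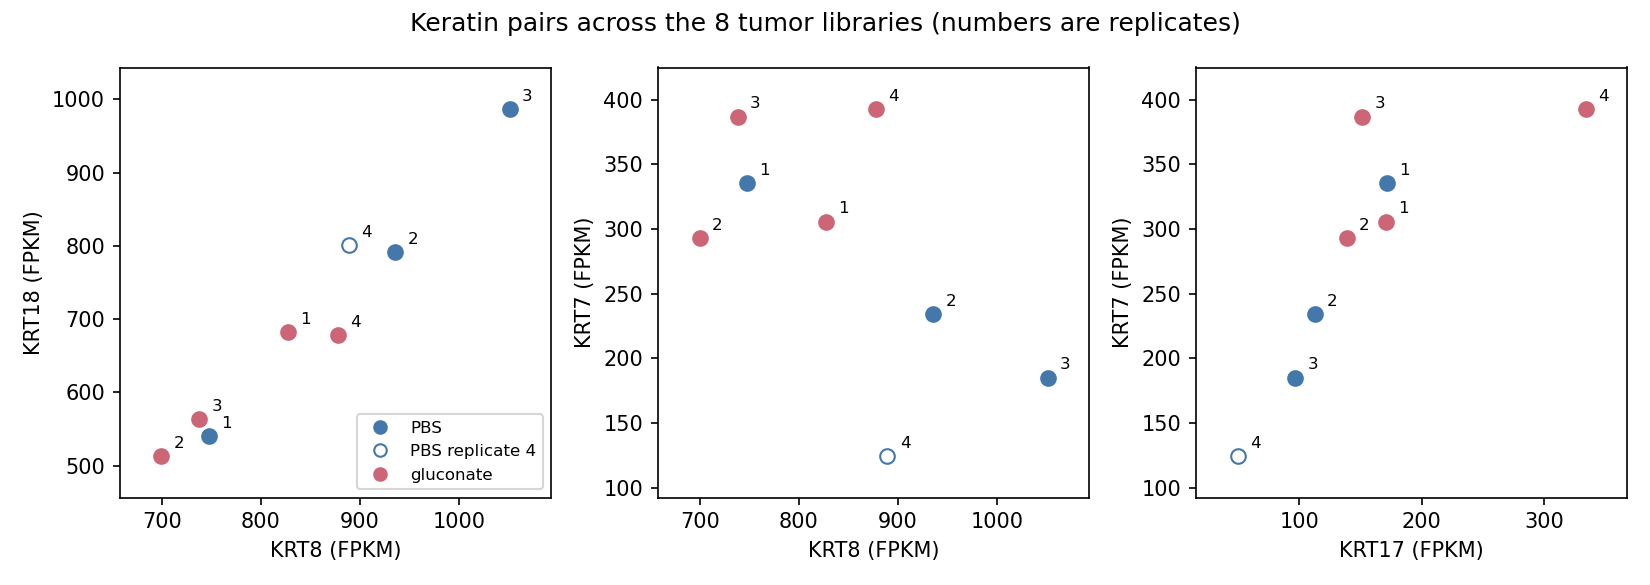
FPKM of KRT18 against KRT8, KRT7 against KRT8 and KRT7 against KRT17, with 1 point per tumor library numbered by replicate (PBS blue, gluconate red, PBS replicate 4 open). KRT8 and KRT18 rise together from 513 to 987 FPKM of KRT18, while the libraries with the highest KRT8, PBS replicates 2 and 3, have less KRT7 than every gluconate library.

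By a fixed measure of likeness, the Pearson correlation of log2(FPKM + 0.1) over the 7 libraries without PBS replicate 4, the tested gene most like KRT8 was KRT18 (0.99), followed by NDUFB10 (0.99). Those most like KRT18 were KRT8 and C6orf136 (0.98). KRCC1 (1.00) and ITPRIPL2 (0.99) came closest to KRT7, and SLC25A20 (0.98) and IFI16 (0.98) to KRT80. With PBS replicate 4 included, the values were 0.79 for KRCC1 and 0.81 for C6orf136, and 0.94 or more for the others. Each gene was picked as highest among all 12486 genes tested over only 7 libraries. High values follow partly from that choice, and none is read as shared regulation.

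Beyond the members, 26 other keratins were in the table and 5 reached a mean of 0.5 FPKM, all type I. KRT17, a keratin of basal cells that injured epithelium also makes, was the most abundant. It measured 172, 113, 96.5 and 49.7 FPKM in PBS replicates 1 to 4 and 171, 139, 151 and 334 FPKM in gluconate replicates 1 to 4. PBS replicate 1 lay in the gluconate range, and gluconate replicate 4 stood far above the rest. Its log2 difference was 0.92 ± 0.38 (SE), with a limma p of 0.0364 unadjusted and 0.740 adjusted and an exact permutation p of 0.114. The log2 difference fell to 0.60 without PBS replicate 4 (unadjusted limma p of 0.0702) and to 0.64 without gluconate replicate 4 (0.104). It was 0.91 without PBS replicate 3 (0.0668), 0.96 without gluconate replicate 1 (0.0550) and 0.92 with a replicate block (0.0722), where the difference kept its size and the p rose above 0.05. It was 1.19 without PBS replicate 1 (0.01002), and 11 of the 16 alternatives kept an unadjusted p under 0.05.

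The log2 levels of KRT17 and KRT7 had a Pearson correlation of 0.92 over 8 libraries and 0.81 over 7 (Spearman 0.93 and 0.89). KRT14, the basal type I keratin, measured 2.75 ± 1.97 FPKM under PBS and 4.60 ± 3.63 FPKM under gluconate. KRT16, a keratin of hyperproliferative epidermis, measured 4.62 ± 1.96 and 6.88 ± 4.49 FPKM, KRT10, of differentiating epidermis, 13.6 ± 1.66 and 15.4 ± 1.72 FPKM, and the hair keratin KRT34 1.46 ± 0.335 and 1.27 ± 0.170 FPKM (SD, n = 4 each). None of these 4 passed an unadjusted p under 0.05 (limma), and their log2 differences were 0.66, 0.47, 0.18 and -0.17 in that order, and 0.62, 0.30, 0.11 and -0.14 without PBS replicate 4. KRT14 and KRT16 were highest in gluconate replicate 4, at 9.97 and 13.6 FPKM, and without that library their log2 differences were 0.21 and 0.08, against 1.07 and 0.72 without PBS replicate 1. KRT17 was highest in the same library, and how far the fragments of KRT14, KRT16 and KRT17 can be separated was not tested. The remaining 21 other keratins had means under 0.5 FPKM and included all 12 other type II keratins in the table, whose summed level was at most 0.275 FPKM in any library.

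The keratin make-up of each tumor was dominated by KRT8 and KRT18. This pair made up 70.2%, 81.9%, 86.9% and 89.6% of all keratin FPKM in PBS replicates 1 to 4 and 74.7%, 72.3%, 69.3% and 66.7% in gluconate replicates 1 to 4. KRT7 made up 18.3%, 11.1%, 7.89% and 6.60% in the PBS libraries and 15.1%, 17.4%, 20.6% and 16.8% in the gluconate libraries. The share of KRT7 was higher in all gluconate libraries and PBS replicate 1 than in the other 3 PBS libraries. The summed keratin level itself was 2044 ± 233 FPKM under PBS and 1977 ± 276 FPKM under gluconate (SD, n = 4 each), a smaller difference than either SD.

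**Figure D4:**
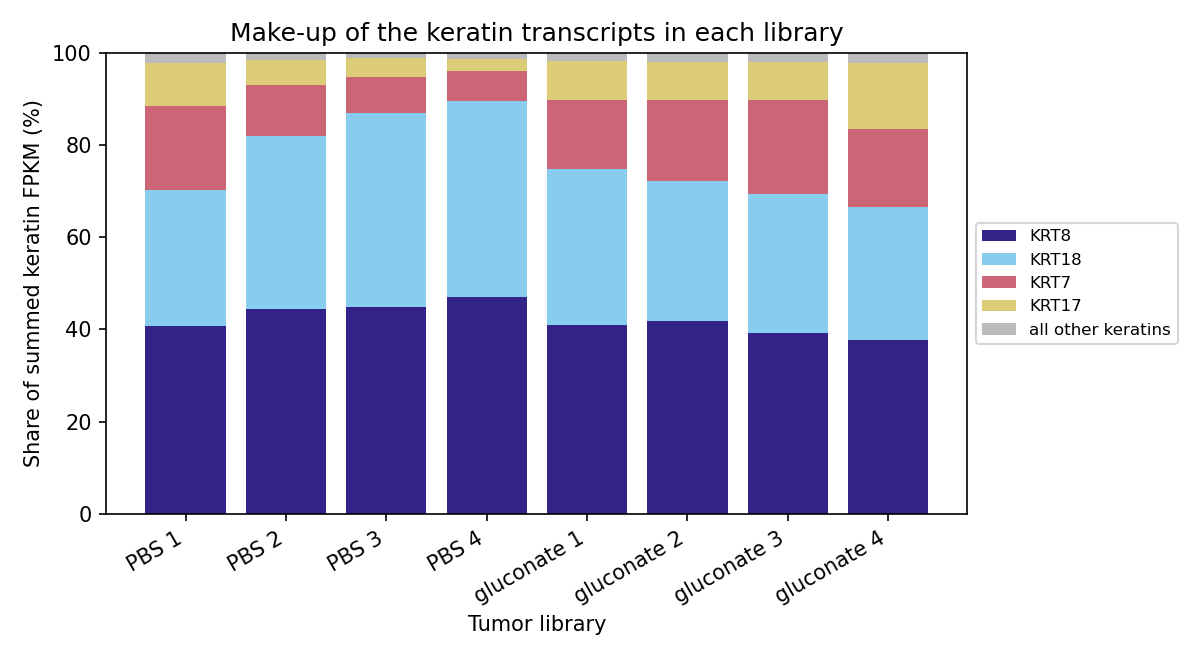
Share of the summed keratin FPKM, in percent, taken by KRT8, KRT18, KRT7, KRT17 and all other keratins in each of the 8 tumor libraries. KRT7 takes 6.60% to 18.3% in the PBS libraries and 15.1% to 20.6% in the gluconate libraries.

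KRT7-AS, named after its values were seen because it lies within KRT7 on the other strand, measured 5.76, 4.19, 5.52 and 2.68 FPKM in PBS replicates 1 to 4 and 7.26, 5.53, 11.8 and 7.84 FPKM in gluconate replicates 1 to 4. Only its lowest gluconate and highest PBS libraries overlapped. Its log2 difference was 0.83 ± 0.28 (SE) at an unadjusted limma p of 0.0145 and an adjusted p of 0.740, and 0.60 without PBS replicate 4. It stood at 1.72% to 3.04% of the KRT7 level. Reads of KRT7 and of its antisense gene cannot be told apart without strand.

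Genes that work with keratins were read against the shares of all genes called, 3.13% higher and 1.49% lower, by which lists of this size would hold few or no calls. Of the desmosome and plakin anchors, which tie keratin filaments to the cell border, 14 of 21 were tested and 0 passed an unadjusted p under 0.05 (limma), with a median log2 difference of 0.07. The most abundant were PLEC (54.4 ± 3.84 FPKM under PBS, 53.0 ± 2.64 under gluconate), the cytoskeletal linker plectin, DSP (52.7 ± 7.83 and 53.9 ± 5.28), the desmosomal plaque protein desmoplakin, and DSG2 (46.2 ± 9.17 and 53.1 ± 2.02), the desmosomal cadherin desmoglein 2. All 10 keratin-binding proteins were tested and 0 passed with all libraries, with a median of -0.00, and 1 was lower without PBS replicate 4, where 3.36% of all genes were called lower. This was TCHP, the keratin-binding protein trichoplein, at 7.75 and 6.83 FPKM over all libraries, with an unadjusted limma p of 0.0234 in the fit without that library, and it was named after its values were seen. Their most abundant members were the heat shock protein HSPB1 (694 ± 121 and 744 ± 83.1 FPKM), YWHAZ (284 and 281 FPKM) and SFN (219 and 206 FPKM), of which YWHAZ and SFN encode 14-3-3 adaptors.

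Among the other intermediate filaments, 9 of 15 were tested and 0 passed an unadjusted p under 0.05 (limma). VIM, the mesenchymal filament protein vimentin, was more abundant than any keratin at 1649.7 ± 370 FPKM under PBS and 1703 ± 95.4 FPKM under gluconate. LMNA, which encodes nuclear lamins A and C, measured 124 and 122 FPKM and the neurofilament gene NEFH 81.3 and 76.2 FPKM. Of 16 epithelial regulators and surface genes, 6 were tested and 0 passed. KLF5 (18.4 and 18.1 FPKM), EPCAM (16.7 and 16.9 FPKM) and TFAP2A (13.8 and 12.9 FPKM) led the list, whereas CDH1, the epithelial cadherin, stayed at or under 0.159 FPKM and GRHL2 at or under 0.0926 FPKM. The hair follicle genes held 3 tested members and 0 passed, S100A3 being the highest at 7.71 and 9.84 FPKM, LEF1 and TCHH being at 0.737 and 0.760 and at 0.647 and 0.517 FPKM, and HOXC13 and FOXN1 not exceeding 0.0316 and 0.00532 FPKM.

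Markers of other cells were read by their human symbols. The stromal, vascular and myeloid cells of the host are mouse cells, and how mouse reads were handled is not given. The levels of these symbols therefore cannot show whether host cells were present or absent. The summed fibroblast markers were 45.3 FPKM in PBS replicate 4, 130 to 185 FPKM in the other PBS libraries and 165 to 192 FPKM under gluconate, and were mostly COL1A1 (120 ± 56.8 and 170 ± 11.3 FPKM, a log2 difference of 0.69, or 0.24 without PBS replicate 4), followed by LUM (2.85 and 3.77 FPKM) and PDGFRB (2.39 and 2.89 FPKM). Further members of this list stood lower under PBS and gluconate: FAP at 1.26 and 2.07 FPKM, COL3A1 at 1.15 and 1.32 FPKM and DCN at 0.0186 and 0.0232 FPKM. Of 8 fibroblast markers 5 were tested and 0 passed an unadjusted p under 0.05 (limma). All 5 had log2 differences above 0, with a median of 0.49, or 0.20 without PBS replicate 4. KRT7 was likewise lowest in PBS replicate 4, and whether this is tied to the level of these markers was not tested. The squamous markers were led by KRT10 and KRT14, given above, with 2 tested and 0 passing, and KRT5 did not exceed 0.0341 FPKM and TP63 0.0105 FPKM.

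The mesothelial markers were led by MSLN (117 ± 8.51 and 141 ± 28.7 FPKM), LRRN4 (4.17 and 2.86 FPKM) and WT1 (2.73 and 1.30 FPKM), with 4 tested and 0 passing, although 1, LRRN4, was lower without PBS replicate 4 at an unadjusted limma p of 0.0149, in the fit that called 3.36% of all genes lower. Ovarian carcinoma markers held 5 tested genes and 0 passed. Their log2 differences ran from -0.67 to 1.46 with a median of 0.13, and the median was 0.03 without PBS replicate 4. Leukocyte markers had 2 tested and 0 passing, with PTPRC, the leukocyte common antigen, at or under 0.0165 FPKM, CD68 at 26.0 and 23.4, ITGAM at 0.896 and 0.765, and LYZ at 0.00788 and 0.0679 FPKM under PBS and gluconate. No endothelial marker was tested, and their sum did not exceed 0.707 FPKM in any library, PECAM1, VWF and TEK being highest. In bulk tumors, fewer cells that make a keratin and less of its RNA in each cell cannot be told apart.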

How the data were processed

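RNA-seq was made from polyA-selected RNA of the 8 tumors. The values deposited by the authors are FPKM for 24196 gene symbols, with GRCh38 named in the submitters' processing notes. The aligner, counter and annotation are not given in the sources used here. Whole fragments and depths were recovered from the steps of the FPKM values and used for depth, 95% Poisson intervals (counting error only) and 1 alternative fit.

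Differences were fitted on log2(FPKM + 0.1) over the 12486 genes with a mean of at least 0.5 FPKM, with limma 3.58.1 (lmFit, then eBayes with a trend) in R 4.3.3, two-sided and unpaired. Adjusted p values are Benjamini-Hochberg values over those genes. Genes were called at an unadjusted p under 0.05. For single genes an exact permutation test (two-sided, 70 splits, or 35 without PBS replicate 4) was run beside it. The fit was tested on simulated data. Nothing in the labels says more than that the tumors are separate samples, so p values measure the spread between these samples. Replicate numbers were checked for pairing. Same-numbered tumors had correlations of their deviations from -0.18 to 0.17, and other-numbered tumors from -0.21 to 0.16. No pairing by number was seen, and so few values cannot exclude it.

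The members and the gene lists were chosen with earlier results of these data known. Named genes are all members, other keratins with a mean of at least 0.5 FPKM and, from each other list, the 3 with the highest mean and up to 4 with an unadjusted p under 0.05, and for each tested member the 2 genes most like it. Other genes that the text names, such as defining markers at or near 0, were picked after their values were seen. Alternatives were pseudocounts of 1 and 0.01, no filter, a mean of at least 1 FPKM, median ratio scaling, quantile normalization, a replicate block, limma's voom on the recovered fragments and leaving out each library. Coordinates and shared runs of coding bases came from GENCODE 29 on GRCh38, using for each gene the complete transcript with the longest coding sequence. The coding sequences themselves are not reported here. Python 3.11.15, numpy 2.4.6, scipy 1.17.1, pandas 2.3.3 and matplotlib 3.10.9 were used.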

Additional observations from a re-analysis of the deposited data

Results flagged for a closer look

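In 36 groups of 4 libraries examined for a library far from the others (among the measures were the members, the other tested keratins, depth and ratios), 6 were found. Chance gives about 1.8 for independent, normally distributed values. Whether these values meet that was not tested, so no excess over chance is read. KRT81 was 0.352 FPKM in PBS replicate 1 against 0.131 to 0.143 FPKM in the other PBS libraries, where PBS replicate 4 held 1 fragment. KRT14 was 5.67 FPKM in the same library against 1.53 to 2.16 FPKM. In gluconate replicate 4, KRT16 was 13.6 FPKM against 4.20 to 5.14 FPKM, and KRT17 was 334 FPKM against 139 to 171 FPKM. KRT19 was 0.0357 FPKM in gluconate replicate 1, which is 2 fragments, against 0 in the other gluconate libraries, where any fragment at all would have stood out, so this one carries no weight in the count of 6. The depth of PBS replicate 4 was 3953206 fragments against 39895393 to 46551535 in the other PBS libraries. That depth was known before the search, so it too carries no weight in the count.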

How the results depend on the processing

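KRT7, KRT80, KRT81 and KRT86 lay higher, and KRT8 and KRT18 lower, under all alternatives run for them, and for KRT19, at or under the floor, no direction is read. Leaving out 1 library at a time gave log2 differences of 0.48 to 0.96 for KRT7, -0.29 to -0.12 for KRT8, -0.50 to -0.21 for KRT18, 0.21 to 0.66 for KRT80, 0.08 to 0.51 for KRT81 and 0.15 to 0.54 for KRT86, and 158 to 928 genes higher and 109 to 421 lower at an unadjusted p under 0.05. Of the 16 alternatives, 14 kept KRT7 under that p, and its adjusted p ran from 0.491 to 0.902. No filter gave 747 genes higher and 281 lower, of more genes tested. Median ratio scaling gave 350 genes lower and quantile normalization 353, against 186, and the cause was not tested. With a replicate block, KRT7 had an unadjusted limma p of 0.0370, 303 genes were higher and 167 lower, and no member's call changed. Depth limits KRT19, KRT81 and KRT86, above all in PBS replicate 4.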
